A study of Mus musculus with 54 samples.

Results

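The cerebellum (Cb) of wild-type (WT) mice was compared with the cortex (Cx) of the same mice. The comparison used 16 of the 54 libraries of the series, 8 from WT cerebellum and 8 from WT cortex, which were chosen by the genotype and region given in the labels and paired by mouse number. All genes of the count table entered. The study sequenced poly(A) RNA from cerebellum, cortex and striatum (St) of Mbd5+/GT mice, which carry a gene-trap insertion in 1 copy of Mbd5 that lowers its expression, and of their WT littermates. The 8 WT mice had no gene-trap allele, were on a C57BL/6 background and were 8 weeks old, with 5 females and 3 males from 3 litters. The tissue was not sorted, so each library holds the RNA of all cell types of the dissected piece. Each region was collected on 1 day, so that collection day and region cannot be told apart.

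The cerebellum is a hindbrain structure whose neurons are mainly small glutamatergic granule cells, together with the inhibitory Purkinje cells that carry the output of its cortex, local inhibitory interneurons and a specialised astrocyte, the Bergmann glia. The cerebral cortex belongs to the forebrain and holds layered excitatory projection neurons and GABA interneurons that arrive from the ventral forebrain. Transcription factors that pattern the neural tube along its length remain on in many adult neurons, and receptors, channels and kinases come in families whose members are used in different combinations by these cells.

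The markers matched the region labels, but several libraries stood apart (the plot of marker sums by library). In cerebellum the summed level of 17 granule and unipolar brush cell markers was 87754, 246018 and 277818 normalised read counts (lowest, median and highest of 8 libraries), against 12922, 13719.7 and 17161 in cortex. The lowest cerebellar sum belonged to mouse M754 and the next, 169582, to mouse M761. The same 2 cerebellar libraries held the most transcripts of the 39 Hox cluster genes, which mark brainstem and spinal cord: their sums were 5077 and 1996, against a median of 17.3 over all 8 cerebella, 155 in the cerebellum of mouse M762, at most 23.1 in the other 5 and at most 10.1 in cortex. Mouse M754 also had the highest sum of mature oligodendrocyte markers, 598192, against a cerebellar median of 195517. The choroid plexus sum ran from 879 to 75701 in cerebellum, with Ttr at 64769.9, 69512 and 38597 in mice M757, M761 and M762 and no more than 6669 in the other 5. In cortex the sum of 13 striatal projection neuron markers ran from 10649 to 81376, lowest in mice M754 and M751. Normalised together with the 8 WT striatal libraries, the dopamine receptor gene Drd1 had medians of 11.6, 1986 and 5076 in Cb, Cx and St. The cortical library of mouse M754 held 507 counts of Eomes, 1592 of Dlx1 and 2072 of Calb2, against cortical medians of 15.9, 649 and 611. What these cells contributed to any single difference was not tested, but each main count is also given without the mice concerned.

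**Figure D1:**
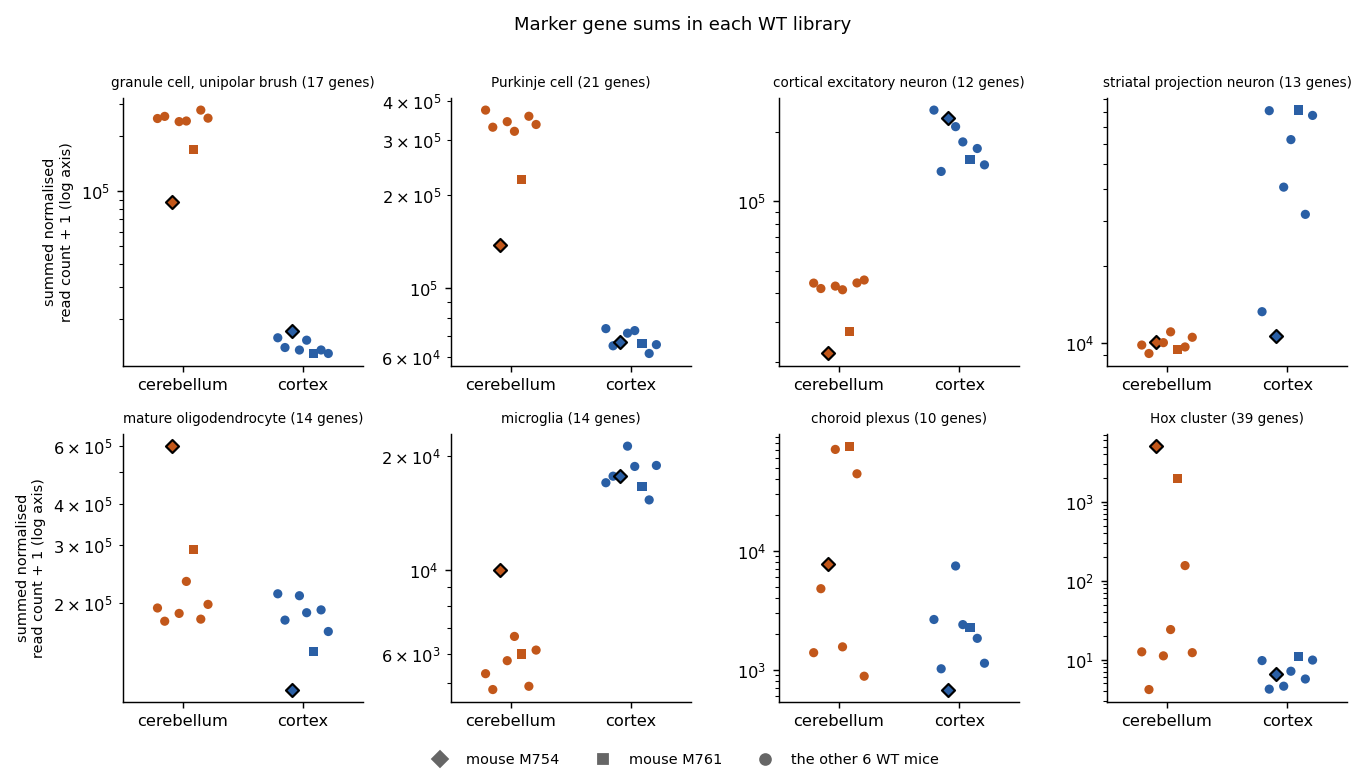
Summed normalised read counts of 8 marker lists in each WT library (log axes that differ between panels; one symbol per library, 8 mice per region, diamonds for mouse M754 and squares for mouse M761). Granule and Purkinje markers were lowest in the cerebellar library of mouse M754, Hox transcripts reached 5077 and 1996 in the cerebella of mice M754 and M761, and the cortical sum of striatal markers spanned 10649 to 81376.

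Of 47069 genes, 18385 had more than 4 counts in at least 8 of the 16 libraries and were tested. At an adjusted p under 0.05 (edgeR quasi-likelihood test with mouse as block, Benjamini-Hochberg), 5341 genes (29.1%) were higher in cerebellum, 5346 (29.1%) were higher in cortex (the background against which the lists below are read) and 7698 did not pass. With a difference of at least 2-fold added, the 2 sides were unequal: 1549 genes (8.43%) were higher in cerebellum and 2783 (15.1%) in cortex. The 8 libraries of one region lay wholly above the 8 of the other for 2036 genes (11.1%) with cerebellum above and 2511 (13.7%) with cortex above. Past 8-fold there were 294 called genes in cerebellum and 638 in cortex, past 32-fold 92 and 172, and past 128-fold 30 and 40. Without mice M754 and M761 the 2-fold counts were 1735 and 2995, and 1476 and 2658 of the genes above passed again. Without mice M752, M759, M761 and M765, whose cortex held the most striatal transcripts, the counts were 1357 and 2296, with 1229 and 2137 genes passing again. This omission lowered the striatal share but did not remove it. The cortices kept had striatal marker sums of 10649 (M754), 13265 (M751), 31848 (M762) and 40684 (M757), against 9106 to 11065 in cerebellum. Since the tissue was not sorted, more cells of a type and more RNA per cell cannot be told apart in any of these differences.

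**Figure D2:**
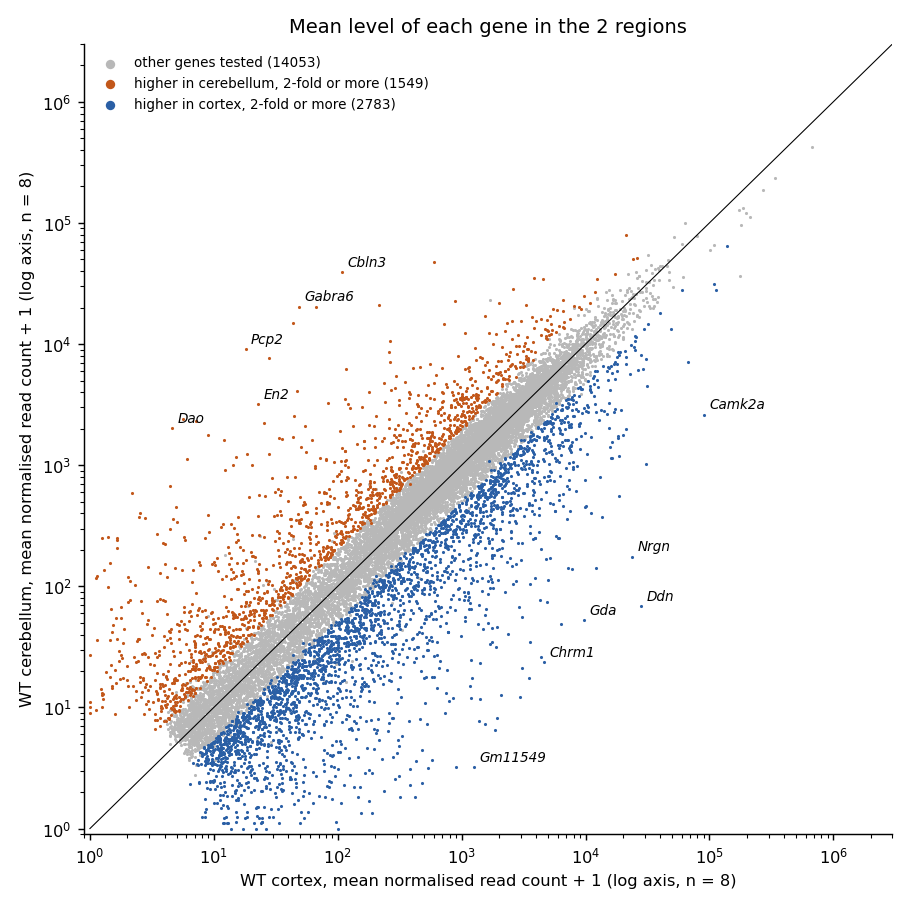
Mean normalised read count + 1 of each of 18385 genes in WT cortex (x) and WT cerebellum (y), 8 libraries each, on log axes; the line marks equal levels. Orange points are the 1549 genes at least 2-fold higher in cerebellum and blue points the 2783 genes at least 2-fold higher in cortex, both at adjusted p under 0.05. Gabra6, Cbln3 and Pcp2 lie far above the line and Ddn, Gda and Gm11549 far below it.

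The 12 protein-coding genes furthest above cortex in cerebellum, among genes averaging at least 1000 counts there, included genes known from granule cells, Purkinje cells, Bergmann glia and glycinergic neurons. Gabra6, the granule cell subunit of the GABA-A receptor (ENSMUSG00000020428, GRCm38 chr11:42306437-42321072, minus strand), gave 6656, 20866 and 27787 counts in cerebellum and 4.69, 12.6 and 234 in cortex, a log2 difference (cerebellum minus cortex) of 9.54 ± 0.72 (adjusted p = 1.8e-06). Cbln3, which encodes a cerebellin secreted by granule cells, gave 13196, 44179 and 50657 in cerebellum and 22.5, 34 and 506 in cortex, a difference of 9.36 ± 0.63 (adjusted p = 8.5e-07). Neither pair of groups overlapped, and the cortical maximum of both genes came from mouse M759, at 234 and 506. The protocadherin Fat2, at 9.05 ± 0.71, and Cnpy1, at 9.08 ± 0.60, had the same mouse as their cortical maximum, with 334 and 207 counts. Of Purkinje cell genes, Pcp2, a regulator of G protein signalling (ENSMUSG00000004630, chr8:3623371-3625545, minus strand), ran at 2884, 9652 and 15319 in cerebellum and 2.91, 8.17 and 70.6 in cortex, a difference of 9.34 ± 0.43 (adjusted p = 4.3e-08). Ppp1r17, a phosphatase inhibitor, differed by 8.28 ± 0.51 and the homeobox gene Lhx1 by 7.24 ± 0.35. Dao, the D-amino acid oxidase gene that astroglia of the hindbrain use, was nearly silent in cortex, with 1218, 2126 and 2652 counts in cerebellum and 0, 1.91 and 15.3 in cortex. Slc6a5, the glycine transporter of glycinergic neurons, stood at 812, 1049 and 9629 in cerebellum and 2.23, 4.10 and 10.2 in cortex, and its 2 highest cerebellar values, 9629 and 3527, were those of the mice with most Hox transcripts. Without these 2 mice its difference was 7.67, against 8.63 ± 0.43 with them. The rest of the 12 were Crtam (8.76 ± 0.41), Nrk (7.83 ± 0.38) and the hindbrain homeobox gene En2 (7.26 ± 0.22), and all 12 were higher in cerebellum in 8 of 8 mice with no overlap.

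The 12 genes furthest above cerebellum in cortex included synaptic, channel and transcription factor genes of forebrain neurons. Ddn, which encodes the postsynaptic protein dendrin (ENSMUSG00000059213, chr15:98803777-98809490, minus strand), had the smallest ratio of highest to lowest cortical library of the 12, with 23783, 28308 and 31333 counts in cortex and 32.6, 62 and 105 in cerebellum (log2 difference -8.77 ± 0.24, adjusted p = 1.0e-09). Gda, the guanine deaminase gene, gave 7141, 10211 and 11093 in cortex and 14.7, 35.3 and 118 in cerebellum, a difference of -7.76 ± 0.38. Neither gene overlapped between regions in any library. Icam5, an adhesion molecule of telencephalic dendrites, differed by -7.48 ± 0.24, the inward rectifier gene Kcnj4 by -7.71 ± 0.13 and the muscarinic receptor gene Chrm1 by -7.70 ± 0.18. Kcnj4 had the smallest p of all genes (adjusted p = 4.7e-11), with 2563, 3701 and 4296 counts in cortex and 11.6, 15.2 and 22.3 in cerebellum. Kcnv1, a silent potassium channel subunit, stood at 2314, 3058 and 3507 in cortex and 0, 6.31 and 41.2 in cerebellum. The transcription factor genes Tbr1 (-7.20 ± 0.20) and Egr3 (-7.66 ± 0.37) were on the same list, as were Crym (-7.95 ± 0.35), Ankrd63 (-7.87 ± 0.37) and the predicted gene Gm11549 (-9.06 ± 0.28). Crym ranged from 675 to 3779 between cortical libraries, a wider spread than that of Ddn, and none of the 12 overlapped between regions. Normalised together with the 8 WT striatal libraries, median Crym was 1441 in cortex and 4290 in striatum, and median Ankrd63 1325 and 3152. Kcnj4 was also higher in striatum (3681 and 4933) and Tbr1 was lower there (2962 and 1630). Without the 4 mice with most striatal transcripts in cortex, the differences of Crym and Ankrd63 were -7.38 and -7.11.

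**Figure D3:**
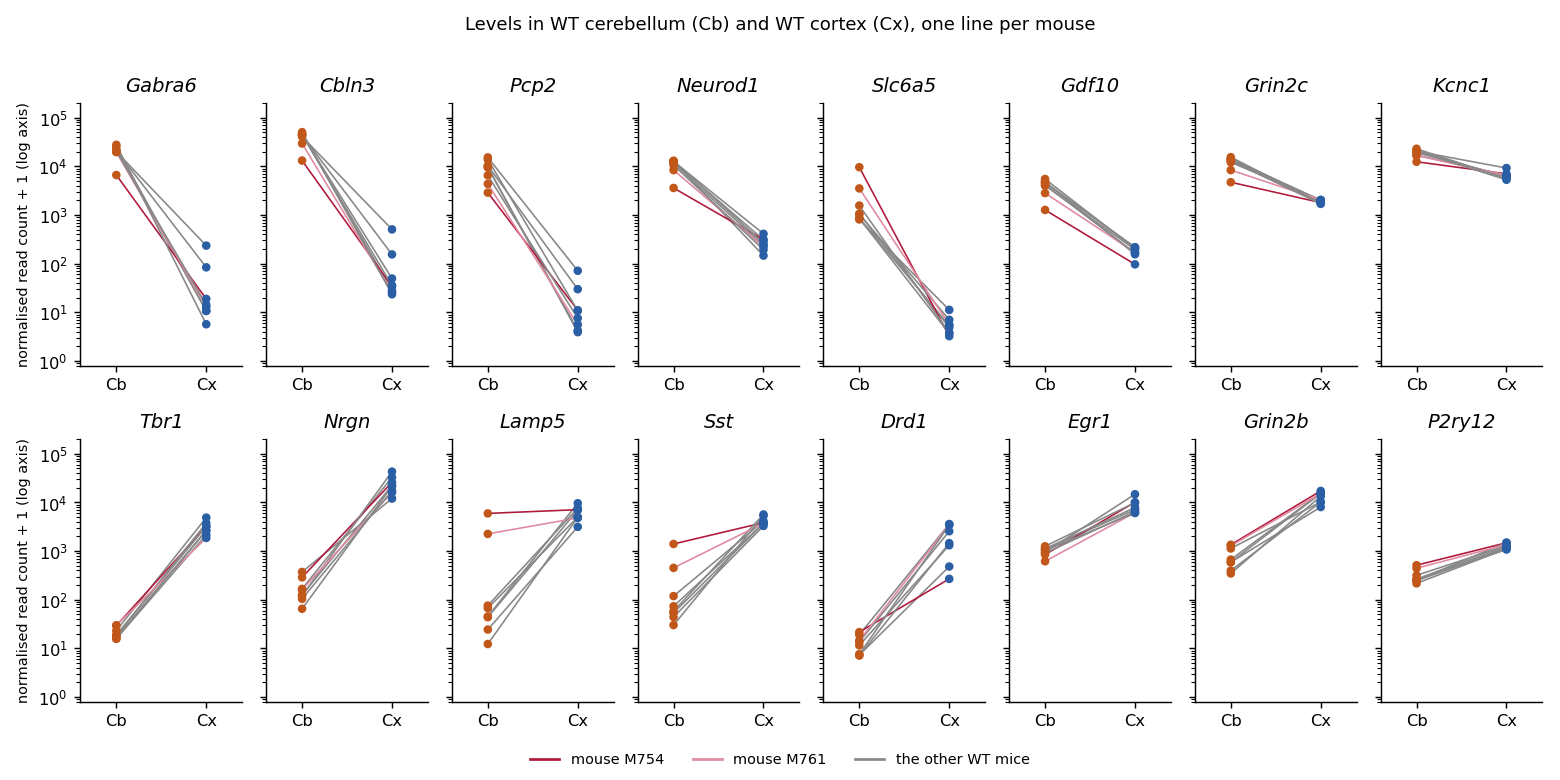
Normalised read count + 1 (log axis) of 16 genes in the cerebellum (Cb) and cortex (Cx) of each WT mouse, with a line joining the 2 regions of a mouse; mice M754 and M761 are coloured. The upper row holds genes higher in cerebellum and the lower row genes higher in cortex. For Lamp5 the line of mouse M754 is nearly flat (5953 and 7107 counts), whereas for Grin2b and P2ry12 all 8 lines rise.

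Patterning transcription factors split by axial origin with few exceptions. Of 37 hindbrain and cerebellar factors 32 were tested, 31 were higher in cerebellum and none was higher in cortex, with a median log2 difference of 4.92 beside 0.017 for all genes. The same 31 were called without mice M754 and M761 and without the 4 mice with most striatal transcripts. En2, an Engrailed factor that sets up the midbrain and hindbrain border region, gave 1143, 3619 and 3858 counts in cerebellum and 9.14, 17.7 and 50.1 in cortex (adjusted p = 1.4e-09). Pax3, a paired box factor, was at 143, 215 and 239.8 in cerebellum and 0, 0 and 5.11 in cortex, so that 7 of 8 cortical libraries had no read. Barhl1 (7.97 ± 0.28), Lhx1 (7.24 ± 0.35), Uncx (6.80 ± 0.50) and En1 (6.64 ± 0.46) were also 32-fold or more apart. Of the zinc finger genes that granule cells keep into adulthood, Zic1 (4.77 ± 0.37), Zic2 (4.16 ± 0.25), Zic4 (3.12 ± 0.26) and Zic5 (3.49 ± 0.24) were higher in cerebellum, and cortex kept 271, 805 and 1697 counts of Zic1. Pax6 belongs to both regions in development and was higher in cerebellum here, with 1250.3, 3372 and 3733 counts in cerebellum against 235, 287 and 464 in cortex (3.31 ± 0.26). The exception to a call was Gbx2, at 0, 1.58 and 76.4 counts in cerebellum and 0, 16.5 and 71.3 in cortex (adjusted p = 0.12); its cerebellar maximum came from mouse M754, and without that mouse it was higher in cortex (-3.14, adjusted p = 3.2e-04).

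Of 25 forebrain factors, 21 were higher in cortex and 3 in cerebellum, with a median log2 difference of -5.87. Emx2, which marks the developing cortex, gave 252, 308 and 434 counts in cortex and 0, 0 and 2.58 in cerebellum (log2 difference -8.38 ± 0.38, adjusted p = 2.3e-08). Its relative Emx1 (-7.34 ± 0.25) and the Dlx genes of the ventral forebrain (Dlx5 -8.60 ± 0.39, Dlx6 -7.94 ± 0.44, Dlx2 -7.24 ± 0.34 and Dlx1 -6.46 ± 0.24) were higher in cortex in 8 of 8 mice. None of these 6 genes exceeded 16.3 counts in any cerebellum, those with most Hox transcripts included, and the cortical maximum of Dlx1 came from mouse M754. The 3 called against the list were Lhx9 (1.45 ± 0.36), Neurod2 (0.74 ± 0.21) and Nr2f2 (0.39 ± 0.08), and all 3 overlapped between regions. Without the 4 mice with most striatal transcripts Neurod2 was at 0.23 and did not pass (adjusted p = 0.47).

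T-box and NeuroD relatives were divided between the regions. Tbr1, the T-box factor of deep cortical layers, gave 1862, 2955 and 4881 counts in cortex and 14.7, 17.6 and 28.8 in cerebellum, whereas its relative Eomes (Tbr2), which in the adult cerebellum marks unipolar brush cells, gave 579.6, 1087 and 1674 in cerebellum and 3.88, 15.9 and 507 in cortex. Groups did not overlap for either gene, and the cortical value of 507 for Eomes came from mouse M754; without mice M754 and M761 the difference was 6.02, against 5.45 ± 0.80 with them. Among NeuroD factors, Neurod1, which granule cells need to form, had 3604, 12006 and 13046 counts in cerebellum and 146, 249 and 410.1 in cortex (5.33 ± 0.29, adjusted p = 1.4e-07). Neurod6, a factor of cortical excitatory neurons, had 906, 1728 and 2510.1 in cortex and 204, 223 and 264 in cerebellum (-2.79 ± 0.16, adjusted p = 1.4e-07). Neither overlapped. Exons annotated for Neurod1 are shared with Cerkl on the same strand, which can lower its count. Because Neurod1 and Neurod6 lie on opposite sides of the comparison, the sequence before their start sites is shown from the RefSeq annotation of GRCm38.p6, each on the minus strand, read 5′ to 3′, with CpG dinucleotides in capitals. The Neurod1 stretch (chr2:79456786-79456886) ends 149 bases before the start because the bases after it overlap annotated exons, and the Neurod6 stretch (chr6:55681264-55681513) reaches the start.
Neurod1: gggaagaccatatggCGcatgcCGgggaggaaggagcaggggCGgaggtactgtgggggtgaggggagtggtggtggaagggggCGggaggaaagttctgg
Neurod6: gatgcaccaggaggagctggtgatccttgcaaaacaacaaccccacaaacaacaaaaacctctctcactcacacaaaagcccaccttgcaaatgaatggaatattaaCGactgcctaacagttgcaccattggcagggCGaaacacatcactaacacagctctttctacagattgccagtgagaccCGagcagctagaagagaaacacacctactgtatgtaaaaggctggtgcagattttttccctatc
The full 250 bases before the start held 22 CpG for Neurod1 and 3 for Neurod6. Neither window of 250 bases held CAGATG or CAGCTG, the E-box hexamers of NeuroD and related factors, on either strand. Gene counts do not show which start site was used.

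Cerebellar cell types were each seen through several markers. All 17 granule and unipolar brush cell markers were higher in cerebellum (median log2 difference 4.54), and 15 of them did not overlap. Cbln1, which links granule cell axons to Purkinje cells, gave 9411, 22233 and 30104 counts in cerebellum and 109.7, 211 and 406 in cortex (6.60 ± 0.21, adjusted p = 1.7e-09). Of 21 Purkinje cell markers 19 were higher in cerebellum and 1, Foxp2, was lower (median 2.92). Car8, an inhibitor of the IP3 receptor, gave 14618, 51222 and 63052 in cerebellum and 381, 521 and 1048 in cortex, a difference of 6.32 ± 0.35. Skor2 (8.32 ± 0.39) and Arhgef33 (6.44 ± 0.22) were likewise Purkinje markers with no overlap. Foxp2 is used by deep cortical neurons too and stood at 249, 342 and 429 counts in cerebellum and 271, 936 and 1448 in cortex (-1.36 ± 0.25, adjusted p = 8.3e-04), which overlapped. Its lowest cortical counts, 271 and 519, were those of mice M754 and M751, whose striatal sums were lowest, and without the 4 mice with most striatal transcripts it did not pass (-0.77, adjusted p = 0.057). Of 11 Bergmann glia markers 9 were higher and none was lower (median 1.87). A2m (4.74 ± 0.22) and the growth factor gene Gdf10 (4.43 ± 0.14) led after Dao, and Gdf10 gave 1272, 4356 and 5502 counts in cerebellum and 95.9, 182 and 217 in cortex.

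The list of cerebellar inhibitory interneuron markers was divided, with 6 of 10 higher in cerebellum and 4 lower. Pax2, a factor of the interneuron lineage, stood at 167, 201 and 428 counts in cerebellum and 1.94, 3.01 and 3.75 in cortex (6.19 ± 0.17, adjusted p = 1.0e-09). Tfap2a (5.07 ± 0.27), Tfap2b (4.53 ± 0.26), Kit (2.12 ± 0.20) and Prkcd (2.23 ± 0.17) were also higher, as was Slc6a5. The 4 lower ones, Sorcs3 (-1.27 ± 0.10), Grm2 (-1.12 ± 0.27), Nxph1 (-0.99 ± 0.16) and Lypd6 (-0.43 ± 0.10), are also used by cortical neurons, and of these 4 only Sorcs3 did not overlap.

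Cortical neurons showed the opposite pattern. Of 12 markers of cortical excitatory neurons 10 were higher in cortex and 2 in cerebellum (median -4.48). Nrgn, a calmodulin-binding postsynaptic protein, gave 12025, 22009 and 43036 counts in cortex and 64.2, 143 and 371 in cerebellum (-7.18 ± 0.42, adjusted p = 2.5e-07). The zinc transporter gene Slc30a3 (-4.99 ± 0.47) was higher in cortex in 8 of 8 mice. The 2 against the list were Nptx1, with 9016, 20979 and 24685 counts in cerebellum and 6462, 8452 and 14159 in cortex (1.07 ± 0.19), and Neurod2, and both overlapped. By layer, 7 of 8 markers of layers 2 to 4, 7 of 9 of layer 5 and 9 of 10 of layer 6 were higher in cortex. Without the 4 mice with most striatal transcripts in cortex these counts were 7, 5 and 7. The layer 5 median was then -0.75, against -1.94 over all mice. Summed over the 9 layer 5 markers, cerebellum had the higher median, 13373 counts against 11250 in cortex. Fezf2, the factor of corticospinal neurons of layer 5, stood at 281, 489 and 974 counts in cortex and 0, 1.06 and 5.09 in cerebellum (-7.87 ± 0.35, adjusted p = 1.9e-08). Bcl11b, its partner in these neurons, stood at -5.69 ± 0.39, and Rprm of layer 6 at -4.55 ± 0.35. Of markers called in the other direction, the layer 5 genes Etv1 (2.42 ± 0.24) and Bcl6 (1.59 ± 0.16) are also granule cell genes and Nxph4 of layer 6b stood at 2.37 ± 0.20; none of these 3 overlapped.

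Some cortical markers were high in single cerebella. Lamp5, of superficial layers and of interneurons, gave 3149.7, 5976 and 9631 counts in cortex and 11.3, 55.1 and 5953 in cerebellum (-5.90 ± 1.18, adjusted p = 0.0015). The 2 highest cerebellar counts, 5953 and 2258, came from mice M754 and M761, and without them the difference was -7.19. Rasgrf2 had the same 2 mice on top in cerebellum, with 2419.8 and 1156 counts against a median of 186 and a cortical range of 4744 to 7492.

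Of 20 markers of forebrain GABA interneurons 16 were higher in cortex and 1 in cerebellum (median -4.52). Lineage genes led, with the Dlx genes above and Sp9 at -6.46 ± 0.47. The exception was Pvalb, the calcium buffer of fast-spiking interneurons that Purkinje and stellate cells also hold, with 9954, 17053 and 25558 counts in cerebellum and 679, 1329.8 and 2795 in cortex (3.52 ± 0.28, adjusted p = 2.0e-06). The 3 not called were Adarb2, Gad1 and Slc32a1. Gad1, the GABA-synthesising enzyme gene, stood at 10241, 15811 and 17632 counts in cerebellum and 10039, 13508 and 15581 in cortex (0.14 ± 0.15, adjusted p = 0.45), and without mice M754 and M761 it was called higher in cerebellum (0.37, adjusted p = 0.015).

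Among ionotropic glutamate receptors 5 of 18 genes were higher in cerebellum, a share near that of all genes (29.1%), and 10 in cortex. Relatives fell on opposite sides (the plot of receptor and channel subunits). The NMDA receptor pairs the obligatory GluN1 with a GluN2 subunit that sets its kinetics. Grin2b gave 8063, 14362 and 17255 counts in cortex and 346, 629 and 1349.9 in cerebellum (-4.17 ± 0.24, adjusted p = 1.7e-07). Grin2c, the subunit of mature granule cells, gave 4729, 13287 and 15505 in cerebellum and 1698, 1892 and 2049.8 in cortex (2.59 ± 0.19, adjusted p = 6.2e-07). Grin2a followed Grin2b at -1.45 ± 0.13, and Grin1 differed by -0.40 ± 0.10. Scaled for exon length and library size (RPKM), the mean levels of Grin2a, Grin2b and Grin2c were 4.43, 1.07 and 79.6 in cerebellum and 12.1, 17.7 and 12.6 in cortex. Grin2c was thus the highest of the 3 in cerebellum. Exons of Grin2b and Grin2c overlap small unnamed genes on the opposite strand, so part of their count depends on whether strand was used. Of AMPA receptor genes, Gria4 was higher in cerebellum (1.87 ± 0.14), Gria3 (-1.11 ± 0.08) and Gria2 (-0.64 ± 0.16) in cortex, and Gria1 did not pass (0.36 ± 0.16, adjusted p = 0.076) but was called higher in cerebellum without mouse M754 (0.49, adjusted p = 0.008), without mice M754 and M761, without pairing by mouse and with total-count scaling. The delta receptor gene Grid1 was higher in cortex (-1.45 ± 0.16), with separate groups. Of kainate receptor genes, Grik5 (-1.56 ± 0.07), Grik3 (-0.81 ± 0.15) and Grik4 (-0.28 ± 0.09) were higher in cortex and Grik1 (0.88 ± 0.11) in cerebellum. Without the 4 mice with most striatal transcripts in cortex, 5 of the 18 genes were higher in cerebellum and 5 in cortex. Grin1 (-0.50, adjusted p = 0.067), Gria2 (-0.60, adjusted p = 0.090), Grik3 (-0.70, adjusted p = 0.083) and Grik4 (-0.28, adjusted p = 0.11) did not pass in that set.

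Metabotropic receptors were also divided. Grm5, of the group I receptors that act through phospholipase C, was higher in cortex, with 3574, 6234 and 8217 counts in cortex against 133, 275 and 1425 in cerebellum (-4.00 ± 0.40, adjusted p = 1.3e-05). In group III, Grm4, the receptor of parallel fibre terminals, was higher in cerebellum (3.50 ± 0.18) and Grm7 (-1.29 ± 0.10) and Grm8 (-1.02 ± 0.13) in cortex. Grm2 and Grm3 of group II were both higher in cortex (-1.12 ± 0.27 and -1.69 ± 0.13). Of these 6 only Grm2 and Grm8 overlapped between regions.

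Of 16 GABA-A receptor genes tested, 4 were higher in cerebellum and 8 in cortex. Among the cerebellar ones were Gabra6, Gabrr2 (1.57 ± 0.18) and Gabrd (1.35 ± 0.16), whose product joins the granule cell receptor outside synapses. Alpha subunits were also found on the cortical side. Gabra4 gave 3271, 4134 and 4621 counts in cortex and 805, 1124 and 1252 in cerebellum (-1.95 ± 0.10), and Gabra2 differed by -1.34 ± 0.11. Gabra5 stood at 1207, 1409.8 and 1931 in cortex and 14.1, 42.1 and 1347 in cerebellum (-4.27 ± 0.80), and the cerebellar maximum, from mouse M754, made the groups overlap. Gabra3 had the same mouse on top in cerebellum, with 2787 counts against a median of 430.5, and a difference of -3.09 ± 0.36. Gabrg3 (-3.84 ± 0.32), Gabrb1 (-0.90 ± 0.12) and Gabrg1 (-0.88 ± 0.16) were cortical too.

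**Figure D4:**
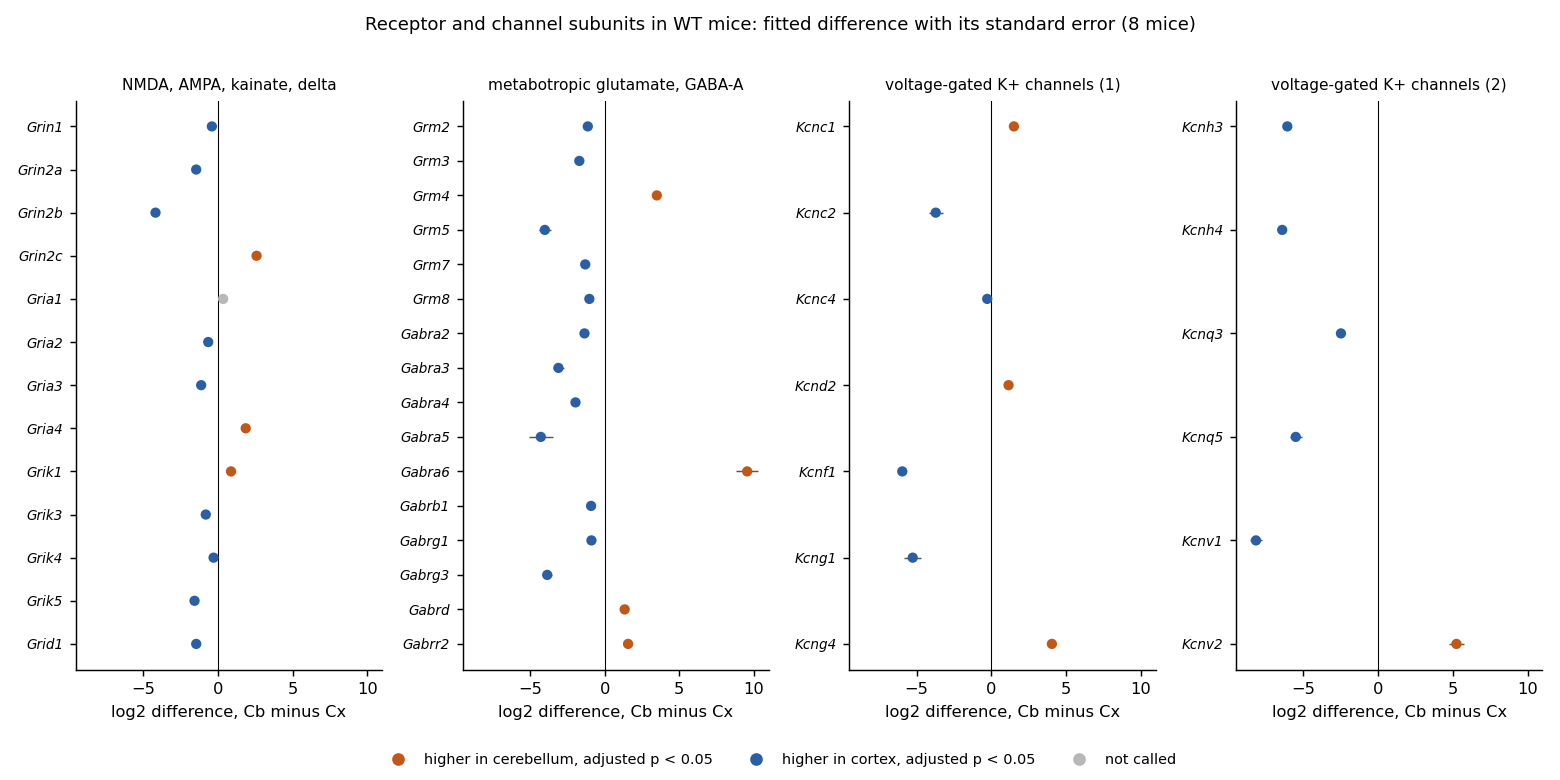
Fitted log2 difference (cerebellum minus cortex, x) with its standard error for the glutamate receptor, GABA-A receptor and voltage-gated potassium channel genes named in the text, in 8 WT mice; orange, higher in cerebellum, blue, higher in cortex, grey, not called at adjusted p under 0.05. Gabra6 at 9.54 and Kcnv1 at -8.17 mark the extremes of those plotted, and relatives such as Grin2b and Grin2c, Grm4 and Grm7, or Kcnc1 and Kcnc2 fall on opposite sides of 0.

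Glycine signalling beyond Slc6a5 was mixed. Slc6a9, the glial glycine transporter, was higher in cerebellum, with 2532, 3054 and 5776 counts in cerebellum against 985, 1312 and 1460 in cortex (1.37 ± 0.14). The receptor subunit genes Glra2 (-1.80 ± 0.29) and Glra3 (-2.44 ± 0.74) were higher in cortex with overlapping groups. Slc12a2, a chloride importer, differed by 0.95 ± 0.13, and the GABA transporter gene Slc6a11 by -1.32 ± 0.30. The cerebellar maximum of Slc6a11, 11941 counts, was again mouse M754.

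Voltage-gated potassium channels leaned to the cortex: 24 of 37 genes were higher there and 6 were higher in cerebellum, with a median log2 difference of -1.44. The Kv3 family, whose fast gating allows high firing rates, had relatives on opposite sides. Kcnc1 gave 12466, 19817 and 23071 counts in cerebellum and 5314, 6418 and 9249 in cortex (1.51 ± 0.14, adjusted p = 3.3e-06). Kcnc2, which parvalbumin interneurons use, gave 2901, 3332 and 4504 in cortex and 112, 180.1 and 1828 in cerebellum (-3.72 ± 0.48, adjusted p = 8.1e-05), and Kcnc4 differed by -0.28 ± 0.09. The groups of Kcnc1 and Kcnc2 were separate and those of Kcnc4 were not. Of the silent subunits, which modify other channels, Kcng4 (4.05 ± 0.23) and the scarce Kcnv2 (5.24 ± 0.52) were cerebellar, and Kcnv1, Kcnf1 (-5.96 ± 0.25) and Kcng1 (-5.26 ± 0.57) cortical. The Kv12 genes Kcnh3 (-6.07 ± 0.22) and Kcnh4 (-6.41 ± 0.27) were more than 32-fold higher in cortex, with 46.1, 74.5 and 112 counts of Kcnh3 in cerebellum against 3581, 4749 and 6356 in cortex. Of M-current channels, which damp repeated firing, Kcnq5 (-5.51 ± 0.40) and Kcnq3 (-2.48 ± 0.21) were higher in cortex. Kcnd2, the A-type channel of granule cells, was higher in cerebellum (1.15 ± 0.14).

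Of 26 sodium, calcium and related channel genes 3 were higher in cerebellum and 9 in cortex, the latter a share near that of all genes. Cacna1a, the P/Q-type channel of Purkinje cells, gave 6095, 12773 and 18411 counts in cerebellum and 3775, 5488 and 9023 in cortex (1.11 ± 0.20, adjusted p = 7.5e-04), which overlapped. Cacna1g, a T-type channel, differed by 1.03 ± 0.24 whereas its relative Cacna1h was higher in cortex, with 1558, 2384 and 3604 counts against 90.2, 108 and 479 in cerebellum (-4.07 ± 0.27). Scn3b (-4.37 ± 0.38) and Scn3a (-3.96 ± 0.46) were also cortical with no overlap. Without the 4 mice with most striatal transcripts, Cacna1a (0.92, adjusted p = 0.0835) and Cacna1g (0.76, adjusted p = 0.19) did not pass. Cacna1g also did not pass in females (adjusted p = 0.057) or without the 3 mice with most Ttr in cerebellum (adjusted p = 0.089). In litter 3 alone no gene of this list was called higher in cerebellum. The sodium channel genes carrying most counts, Scn2a (0.23 ± 0.18, adjusted p = 0.28), Scn8a (-0.21 ± 0.11, adjusted p = 0.12) and Scn1a (0.28 ± 0.18, adjusted p = 0.21), did not pass. Each was called when 1 mouse was left out, Scn2a without mouse M754 (0.39, adjusted p = 0.026), Scn8a without mouse M762 (-0.29, adjusted p = 0.034) and Scn1a without mouse M759 (0.42, adjusted p = 0.038).

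Calcium stores and buffers had strong members on both sides. Itpr1, the IP3 receptor of Purkinje cells, gave 27837, 79319 and 122630.1 counts in cerebellum and 16947, 22302 and 27355 in cortex (1.81 ± 0.25, adjusted p = 8.6e-05). The pump gene Atp2a3 (4.71 ± 0.28), Itpr3 (2.25 ± 0.26) and the calcium buffers Calb2 (4.54 ± 0.48), Pvalb and Calb1 (2.83 ± 0.22) were on the same side. Over the 26 store channels and calcium-binding proteins 11 were higher in cerebellum and 10 in cortex. The neuronal calcium sensors split within a family: Hpcal1 gave 3560.2, 8645 and 12522 counts in cerebellum and 545, 911 and 1458 in cortex (3.05 ± 0.22), while Hpcal4 gave 910.3, 959 and 1239 in cerebellum and 24844, 29646 and 42487 in cortex (-4.91 ± 0.09, adjusted p = 8.7e-11). Hpca, from the same family, was cortical as well (-3.38 ± 0.12).

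Of 17 calcium/calmodulin kinase genes and relatives, 11 were higher in cortex and 2 in cerebellum. Camk2a, the alpha subunit of CaMKII in excitatory forebrain synapses, gave 67295, 86674 and 119068 counts in cortex and 2309.6, 2602 and 2856 in cerebellum (-5.09 ± 0.13, adjusted p = 7.7e-10). Camk2b did not pass, with 14432, 23009 and 26119.7 counts in cerebellum and 20184, 25272 and 26762 in cortex (-0.22 ± 0.11, adjusted p = 0.12). In RPKM, mean Camk2a and Camk2b levels were 11.7 and 78.5 in cerebellum and 405 and 89.9 in cortex, so the order of the 2 subunits was reversed between regions. The CaMKII inhibitor gene Camk2n1 (-3.22 ± 0.15) and the pseudokinase gene Camkv (-5.70 ± 0.42) were cortical too. The 2 called in cerebellum were Camk4, a nuclear kinase of granule cells (1.29 ± 0.16), and Camk2d (1.12 ± 0.15). Of 9 protein kinase C genes, Prkcd was cerebellar and Prkca (-1.67 ± 0.12), Prkch (-1.63 ± 0.40), Prkcb (-0.90 ± 0.12) and Prkce (-0.86 ± 0.11) were cortical. Prkch did not pass without the 4 mice with most striatal transcripts (-0.59, adjusted p = 0.21) or without the 3 mice with most Ttr in cerebellum (adjusted p = 0.058).

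Of 27 cyclic nucleotide enzyme genes 17 were higher in cortex and 8 in cerebellum, the latter a share near that of all genes (29.1%). Without the 4 mice with most striatal transcripts in cortex, 11 were higher in cortex and 6 in cerebellum. The calcium-dependent phosphodiesterases fell on both sides. Pde1a gave 4013, 4789 and 5614 counts in cortex and 86, 131 and 415 in cerebellum (-5.04 ± 0.28, adjusted p = 1.4e-07). Pde1c gave 1936, 3658 and 5855 in cerebellum and 211, 519 and 801 in cortex (2.93 ± 0.25, adjusted p = 3.2e-06). Neither overlapped. Pde5a, which degrades cGMP in Purkinje cells, was also cerebellar (2.78 ± 0.28). Pde1b (-3.19 ± 0.44), Adcy5 (-2.61 ± 0.32) and Pde10a are abundant in striatal projection neurons: without the 4 mice with most striatal transcripts in cortex their differences were -2.32, -1.83 and -0.73, against -1.73 ± 0.36 for Pde10a over all 8 mice.

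Glutamate transporter genes differed in level between the 2 regions. Slc1a2 (GLT-1), the main uptake carrier of forebrain astrocytes, gave 81768, 117461 and 135554 counts in cortex and 17707, 24285 and 43344 in cerebellum (-2.06 ± 0.15, adjusted p = 7.6e-07). Slc1a3 (GLAST), the carrier of Bergmann glia, was higher in cerebellum with overlap (0.74 ± 0.20, adjusted p = 0.0075), and Slc1a6, the carrier of Purkinje cells, was at 1664, 5189 and 7290.3 counts in cerebellum and 179, 228 and 292 in cortex (4.23 ± 0.23). The neuronal carrier gene Slc1a1 was higher in cortex (-1.61 ± 0.13). The vesicular transporter genes Slc17a7 (-1.18 ± 0.18) and Slc17a8 (-4.29 ± 0.58) were both higher in cortex, and Slc17a6 did not pass (adjusted p = 0.94): its cerebellar counts were 359, 685 and 6447, with the maximum in mouse M754. Without mice M754 and M761 it was higher in cortex (-0.67, adjusted p = 0.0052).

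The release machinery was divided between calcium sensors. Syt2, a fast sensor of hindbrain synapses, gave 12686, 14592 and 20407 counts in cerebellum and 1186, 2151 and 4298 in cortex (2.76 ± 0.21, adjusted p = 1.1e-06), and Syt1, the fast sensor of the forebrain, gave 43261, 47704 and 59356 in cortex and 9543, 13333 and 17162 in cerebellum (-1.89 ± 0.11, adjusted p = 1.7e-07). Each pair of groups was separate. Syt9 was cerebellar (2.76 ± 0.18), and Syt16 (-4.27 ± 0.25), Syt5 (-4.09 ± 0.22) and Syt17 (-3.63 ± 0.20) were cortical. In the SNARE complex Stx1a gave 4460.4, 6836 and 9772 counts in cortex and 68.4, 101 and 417 in cerebellum (-5.88 ± 0.29, adjusted p = 5.2e-08). Over the 24 genes of this list, 6 were higher in cerebellum and 12 in cortex.

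Cerebellins, secreted proteins that bridge presynaptic neurexins to postsynaptic delta receptors, were divided between the regions. Cbln1 and Cbln3 were cerebellar, as above. Cbln2 gave 794, 1177 and 1718 counts in cortex and 2.82, 25.7 and 494 in cerebellum (-4.61 ± 0.80, adjusted p = 6.1e-04), and Cbln4 gave 359, 430.3 and 996 in cortex and 13.2, 36.8 and 664 in cerebellum (-3.13 ± 0.66, adjusted p = 0.0022). The groups overlapped for Cbln4, whose cerebellar maximum was mouse M754; without mice M754 and M761 the differences were -5.73 and -4.08. Because Cbln3 and Cbln4 also lie on opposite sides, stretches before their start sites are shown as for NeuroD, both on the minus strand of GRCm38.p6 from RefSeq. The Cbln3 stretch (chr14:55884393-55884506) ends 136 bases before the start, where annotated exon sequence begins, and the Cbln4 stretch (chr2:172043467-172043716) reaches the start.
Cbln3: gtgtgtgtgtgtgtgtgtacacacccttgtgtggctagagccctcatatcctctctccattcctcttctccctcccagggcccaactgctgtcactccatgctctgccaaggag
Cbln4: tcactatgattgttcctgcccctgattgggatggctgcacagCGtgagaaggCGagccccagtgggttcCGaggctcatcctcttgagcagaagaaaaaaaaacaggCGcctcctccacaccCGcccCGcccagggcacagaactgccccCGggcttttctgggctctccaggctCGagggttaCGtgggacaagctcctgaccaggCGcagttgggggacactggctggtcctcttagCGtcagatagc
The 250 bases before the start held 2 CpG for Cbln3 and 11 for Cbln4, and none of the 4 motifs searched in all promoters was found in either.

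Across all 12800 tested genes with a RefSeq promoter, the median number of CpG in the 250 bases before the start was 15. It was 11 for genes at least 2-fold higher in cerebellum and 9 for those 2-fold higher in cortex, and 6 and 8 for genes past 8-fold. The motif CAGATG, sought on both strands, was found in 10.7% of all promoters, in 13.4% and 13.7% of the 2-fold cerebellar and cortical sets and in 19.5% and 14.4% of the sets past 8-fold. CAGCTG was found in 12.4% of all promoters and in 14.9% and 17.0% of the sets past 8-fold. For the TATA box TATAAA the shares were 6.98%, 12.3% and 13.2%, and for the cAMP response element TGACGTCA 2.55%, 1.54% and 1.92%. These shares are descriptions without a test.

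Over the whole list of synaptic organisers, the cerebellins above included, 12 of the 22 genes tested were higher in cortex and 4 in cerebellum. Lrrtm4 gave 863, 1197 and 1382 counts in cortex and 132, 157 and 431 in cerebellum (-2.67 ± 0.17). Of 19 cadherins 7 were higher in each region, close to the background. Cdh15, a cadherin of granule cells, gave 529, 1762 and 2182 counts in cerebellum and 29.1, 63.7 and 93.3 in cortex (4.71 ± 0.22, adjusted p = 3.6e-08), and Cdh9 gave 406, 560.2 and 753.7 in cortex and 8.45, 22.8 and 106 in cerebellum (-4.26 ± 0.45, adjusted p = 1.8e-05). Of 22 Eph receptors and ephrins 11 were cortical, led by Ephb6 (-2.94 ± 0.31), Ephb3 (-2.82 ± 0.18) and Epha4 (-2.63 ± 0.10). The 5 in cerebellum included Epha8 (1.79 ± 0.19) and Ephb2 (1.57 ± 0.21), both with overlap.

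Receptors for monoamines were mainly cortical. Of 25 serotonin, dopamine and noradrenaline receptor genes 20 were higher in cortex and 1 in cerebellum (median -2.16). Htr2a, the cortical target of hallucinogens, gave 244, 541 and 771 counts in cortex and 4.20, 15.9 and 123 in cerebellum (-4.52 ± 0.48, adjusted p = 1.7e-05), and Adrb1 gave 381, 492 and 698 in cortex and 45.6, 52 and 85 in cerebellum (-3.17 ± 0.16, adjusted p = 4.0e-08). Drd1 stood at 268, 2007 and 3597 in cortex and 6.10, 11.6 and 20.6 in cerebellum (-7.17 ± 0.50). Its lowest cortical counts, 268 and 481, came from mice M754 and M751, the libraries with the lowest striatal sums. Without the 4 mice with most striatal transcripts, 12 of the 25 genes were higher in cortex, Drd1 (-6.04) and Htr2a (-3.91) among them. The cortices of mice M757 and M762, which were kept, still had striatal marker sums of 40684 and 31848. In this smaller set of 4 mice 6193 of all genes were called, against 10687.

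Of 24 acetylcholine, opioid, cannabinoid and adenosine receptor genes 15 were cortical and 4 cerebellar. Chrm1 gave 3595, 4494 and 5899.9 counts in cortex and 13.6, 21 and 44.7 in cerebellum, and Chrm4 (-5.29 ± 0.22) and Chrm3 (-4.72 ± 0.42) were on the same side. The cerebellar ones were Chrnb4 (2.72 ± 0.28), Chrna3 (1.29 ± 0.19), Chrnb2 (0.91 ± 0.10) and the cannabinoid receptor gene Cnr1, with 5752, 12923 and 18124 counts in cerebellum and 4065, 5135 and 6787 in cortex (1.26 ± 0.21, adjusted p = 4.4e-04), which overlapped. The delta opioid receptor gene Oprd1 was cortical (-4.18 ± 0.49).

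Of 37 peptide and growth factor genes 27 were higher in cortex and 4 in cerebellum (median -1.50). Vip gave 762.1, 1113 and 1636 counts in cortex and 1.02, 4.73 and 90.2 in cerebellum (-6.12 ± 0.64, adjusted p = 1.8e-05), and Sst gave 3296, 3797 and 5658 in cortex and 29.1, 64.7 and 1401 in cerebellum (-5.23 ± 0.70, adjusted p = 1.1e-04). The cerebellar maxima of both, 90.2 and 1401, were from mouse M754, and without mice M754 and M761 the differences were -7.41 and -6.16. Pdyn (-6.43 ± 0.77), Cartpt (-5.55 ± 1.02) and Tac1 (-5.57 ± 0.97) were also cortical, and the latter 2 overlapped. Without the 4 mice with most striatal transcripts in cortex, Cartpt (-4.83, adjusted p = 0.076) and Tac1 (-4.69, adjusted p = 0.064) did not pass. In that set 19 of 36 genes of this list were higher in cortex. The 4 cerebellar ones were the neurotrophin gene Ntf3, with 80.7, 177 and 309 counts in cerebellum and 7.77, 20.2 and 30.2 in cortex (3.13 ± 0.23), Fgf1 (1.24 ± 0.09), Fgf9 (1.00 ± 0.08) and Chgb (0.92 ± 0.10). Bdnf, a relative of Ntf3, was higher in cortex (-0.72 ± 0.15), so these neurotrophins were divided between regions.

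Immediate early genes, which neuronal activity induces within minutes, were higher in cortex for 13 of 18 and in cerebellum for 3 (median -1.98). Egr3 gave 626, 1219.7 and 2515 counts in cortex and 0, 4.67 and 18.9 in cerebellum, and its relative Egr1 gave 6072, 7483 and 14747 in cortex and 616, 992 and 1254 in cerebellum (-3.09 ± 0.16, adjusted p = 5.5e-08). Arc, which regulates AMPA receptor traffic, gave 3399, 6119 and 16229.9 in cortex and 487, 600.3 and 1025 in cerebellum (-3.41 ± 0.21, adjusted p = 2.6e-07). Within the AP-1 family Fosb (-3.96 ± 0.20) and Junb (-2.92 ± 0.08) were cortical, Jun was higher in cerebellum (0.68 ± 0.13, adjusted p = 0.0011) and Fos did not pass, with 314, 770 and 1389 counts in cerebellum and 645, 934 and 1277 in cortex (-0.34 ± 0.18, adjusted p = 0.13) except without mouse M757 (-0.48, adjusted p = 0.023). The other 2 in cerebellum were Ier2 (0.92 ± 0.25) and Dusp1 (0.49 ± 0.15), both with overlap. Without the 4 mice with most striatal transcripts, neither Ier2 (0.36, adjusted p = 0.17) nor Dusp1 (0.29, adjusted p = 0.29) passed. Dusp1 also did not pass in females, in males, in litter 1 or in litter 3 alone. Of 18 clock genes 5 were cerebellar and 8 cortical, and without mouse M751 alone 5 were cortical. Npas2, a partner of the clock factor BMAL1 in the forebrain, gave 1076, 1482 and 1753 counts in cortex and 94.4, 149 and 202 in cerebellum (-3.27 ± 0.13, adjusted p = 9.3e-09), while Clock itself did not pass (0.25 ± 0.13, adjusted p = 0.13) except without mouse M759 (0.35, adjusted p = 0.022), with total-count scaling, with surrogate variables or in males. The repressor gene Cry1 was higher in cerebellum (1.33 ± 0.13), and the nuclear receptor genes Rora (1.78 ± 0.17) and Rorb (-2.08 ± 0.21) took opposite sides.

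Microglial transcripts were lower in cerebellum without exception: all 14 markers were at least 2-fold higher in cortex, none overlapped and the median log2 difference was -1.72. P2ry12, the ADP receptor of resting microglia, gave 1077, 1260.4 and 1494 counts in cortex and 216, 259 and 512 in cerebellum (-2.08 ± 0.12, adjusted p = 1.2e-07), and the fractalkine receptor gene Cx3cr1 gave 899, 1478 and 1721 in cortex and 286, 309.8 and 684 in cerebellum (-2.03 ± 0.13, adjusted p = 2.2e-07). Siglech (-2.05 ± 0.13) and Gpr34 (-2.08 ± 0.17) were of the same size. Exons of P2ry12 overlap Med12l on the opposite strand. The cerebellar maximum of both genes, 512 and 684, came from mouse M754. All 14 markers were again called without mice M754 and M761 and without the 4 mice with most striatal transcripts.

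Other glial lists were mixed. Of 16 astrocyte markers 7 were higher in cerebellum and 4 in cortex. Agt, angiotensinogen, gave 1788, 2121 and 2805 counts in cerebellum and 138, 369 and 656 in cortex (2.75 ± 0.31, adjusted p = 3.1e-05), and the water channel gene Aqp4 gave 8281, 12858 and 18952 in cerebellum and 3568, 5305 and 6159.9 in cortex (1.35 ± 0.12, adjusted p = 2.5e-06). Slc1a2, Chrdl1 (-1.82 ± 0.26) and Mfge8 (-1.49 ± 0.13) were on the cortical side, so astrocyte genes were found on both sides. Of 14 mature oligodendrocyte markers 4 were called higher in cerebellum, a share near that of all genes (29.1%). Fa2h (0.75 ± 0.25), Ugt8a (0.62 ± 0.24) and Cnp (0.51 ± 0.20) were among them, and all 4 overlapped. Without mouse M759, M761 or M765 alone, 1 of the 14 was called in this direction, 2 were without mouse M762, and without pairing by mouse 9 were. With mouse M754, whose cerebellum held the highest oligodendrocyte sum, and mouse M761 left out, 5 were higher in cerebellum and 2 in cortex. Without the 4 mice with most striatal transcripts none was called, while the median log2 difference was 0.49, against 0.47 over all mice. Of 10 precursor markers 4 were higher in cortex, led by Pdgfra (-1.41 ± 0.16, adjusted p = 1.7e-05) and Gpr17 (-1.37 ± 0.14), and without mouse M754 alone 9 were.

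Vascular, choroid and blood markers mostly overlapped between regions. Of 16 endothelial and pericyte markers 7 were higher in cortex, Pdgfrb having the largest difference (-0.41 ± 0.10); 3 were called without mouse M751, 4 without mouse M759 and none without the 4 mice with most striatal transcripts. Scaled to total counts, or without pairing by mouse, 2 of the 16 were called. Of 10 choroid plexus markers 4 were higher in cerebellum, between 2 without mouse M757 or M762 and 6 without mouse M759. Otx2, which granule cell precursors of the cerebellum also use, gave 125, 315 and 707 counts in cerebellum and 19, 29.7 and 58.2 in cortex (3.54 ± 0.27, adjusted p = 1.1e-06), while Ttr, the defining marker, gave 169, 5239 and 69512 in cerebellum and 127, 1194 and 6584 in cortex and did not pass (adjusted p = 0.085). Ttr was called higher in cerebellum without pairing by mouse (adjusted p = 0.0096), by DESeq2 (adjusted p = 0.0016) and limma-voom (adjusted p = 0.029), in females, and without mouse M751, M759 or M765 alone, and without pairing 7 of the 10 choroid plexus markers were called. All 6 erythrocyte markers were called higher in cerebellum, from 0.50 ± 0.17 for the globin gene Hba-a2 to 2.74 ± 0.45 for the anion exchanger gene Slc4a1, and 3 of the 6 were called without mouse M765 and 2 without mice M754 and M761, and 1 without pairing. Reads of Hba-a2 are hard to tell from those of its near-identical copy Hba-a1. Of the 12 cilium genes 2 were higher in cerebellum and 4 in cortex; those higher in cerebellum were 1 without mouse M759 or M761, 4 without mouse M752 and 4 without pairing, and Dnah11 had the largest difference, with 264, 821 and 1299.7 counts in cerebellum and 11, 22.3 and 184 in cortex (4.61 ± 0.61, adjusted p = 1.0e-04), whereas Spag6l (-1.91 ± 0.42) and Dnah9 (-1.53 ± 0.32) were higher in cortex.

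Mbd5, the gene trapped in the mutant line, differed little between regions. It gave 1259.7, 1603 and 2246 counts in cerebellum and 1448, 2007 and 2238 in cortex, a log2 difference of -0.28 ± 0.11 (adjusted p = 0.047), lower in cerebellum in 6 of 8 mice with overlapping groups. It did not pass without mouse M751, M752, M754, M759, M761 or M765 alone, without mice M754 and M761 together (-0.20, adjusted p = 0.17) or without the 4 mice with most striatal transcripts (-0.16, adjusted p = 0.54). Of the 9 genes of the methyl-CpG-binding domain family 4 were higher in cerebellum, Setdb2 (0.65 ± 0.12), Mbd4 (0.46 ± 0.13), Mbd6 (0.28 ± 0.08) and Setdb1 (0.27 ± 0.09). Of the 9, 1 was called in this direction without the 4 mice with most striatal transcripts, without the 3 mice with most Ttr in cerebellum or in females, and none in litter 1 or litter 3 alone. Among DNA methylation and associated chromatin genes, Dnmt3b gave 53.2, 103 and 127 counts in cerebellum and 24, 36.1 and 47 in cortex (1.48 ± 0.17, adjusted p = 2.5e-05). Its relatives differed from it: Dnmt1 was higher in cerebellum by less (0.61 ± 0.12) and Dnmt3a did not pass (-0.07 ± 0.12, adjusted p = 0.63). The demethylase genes Tet1 (1.22 ± 0.17) and Tet2 (-0.78 ± 0.15) took opposite sides, and Asxl3, of the complex that removes ubiquitin from histone H2A, was higher in cortex (-1.07 ± 0.17). Of 83 cytosolic ribosomal protein genes 3 were higher in cerebellum and 15 in cortex (median -0.14); the cortical count ranged from 9 without mouse M757 to 24 without mouse M754, and 1 was higher in cerebellum without mouse M751, M752, M759 or M765. Scaled to total counts, 5 were higher in cerebellum and 6 in cortex. In addition, 11 of 13 mitochondrially encoded genes were higher in cortex (median -0.67). Without the 4 mice with most striatal transcripts 3 were called, while the median was -0.70.

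The same contrast was available in 10 Mbd5+/GT mice, none of which entered the comparison above. There, 1463 of 18350 genes (7.97%) were at least 2-fold higher in cerebellum and 2796 (15.2%) in cortex. Of the 1549 WT cerebellar genes 1479 were tested, 1468 had the same direction and 1415 (91.3%) were called in it; of the 2783 WT cortical genes 2706 were tested, 2705 had the same direction and 2653 (95.3%) were called. None was called in the opposite direction. Differences of single genes were close: Gabra6 had 9.24 ± 0.79 in Mbd5+/GT mice against 9.54 ± 0.72 in WT mice, Camk2a -5.00 ± 0.15 against -5.09 ± 0.13, Grin2b -4.08 ± 0.21 against -4.17 ± 0.24 and P2ry12 -1.96 ± 0.12 against -2.08 ± 0.12. Across 18100 genes tested in both, the median absolute difference between the genotypes' log2 values was 0.072 and Pearson's r was 0.982, a description over genes, which are not independent replicates. A test of the region difference between genotypes over 19766 genes gave 0 genes at an adjusted p under 0.05 (edgeR) and 199 at an unadjusted p under 0.05; DESeq2 gave 0 and 166. Between the 5 female and 3 male WT mice the region difference also gave 0 genes after adjustment (edgeR), with 504 of 18385 at an unadjusted p under 0.05, and DESeq2 gave 0 and 550. By edgeR the unadjusted counts were 1.01% of genes for genotype and 2.74% for sex, below the share of 0.05 expected without any difference. Sex overlapped with litter, since the WT mice of litter 1 were female and that of litter 2 was male. These tests do not show that the regions differ alike in the 2 genotypes or sexes.

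**Figure D5:**
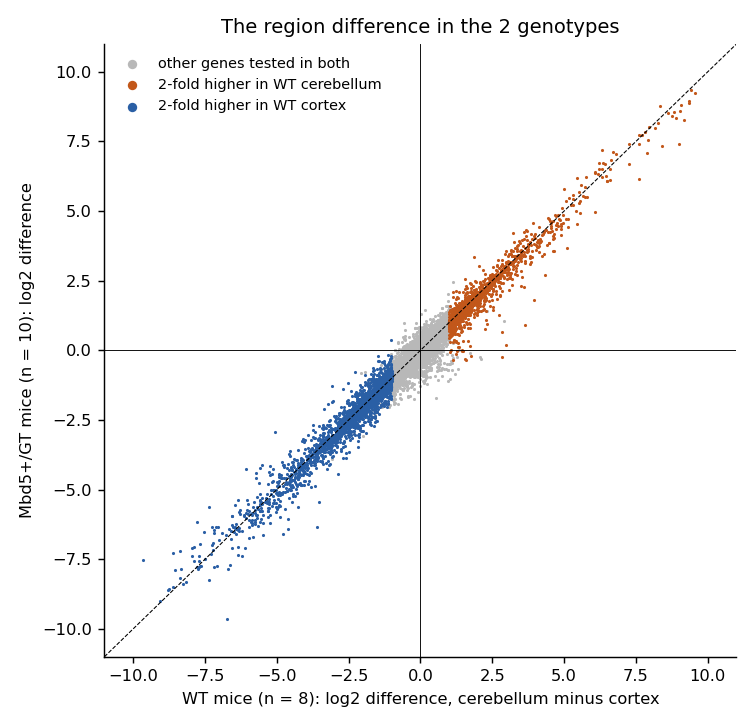
Log2 difference (cerebellum minus cortex) of 18100 genes in 8 WT mice (x) and 10 Mbd5+/GT mice (y); the dashed line marks equal differences. Genes at least 2-fold apart in WT mice (orange and blue) lie along the line, and of those tested 1468 cerebellar and 2705 cortical genes had the same direction in Mbd5+/GT mice.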

How the data were processed

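Poly(A) RNA of each sample was sequenced with ERCC spike-ins and, per the labels and the methods of the study, checked with FastQC 0.10.1, aligned to GRCm38 with STAR 2.4.2 and counted per gene against the Ensembl annotation with its GeneCounts mode. The authors deposited 1 table of raw, not normalised read counts, with 47069 genes and 92 spike-ins; whether counting used strand is not given in the sources used here. The WT libraries held 27221659 to 33567642 gene-assigned counts in cerebellum and 25295973 to 33917642 in cortex. Mitochondrially encoded genes took 4.18 to 6.38% of these in cerebellum and 5.75 to 8.25% in cortex, and spike-ins 0.030 to 0.18% of all counts.

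From these counts, spike-ins were left out, libraries were scaled by trimmed mean of M-values (TMM), and a gene was tested if 8 or more of the 16 libraries had over 4 counts of it, with the quasi-likelihood test of edgeR 4.0.16 (R 4.3.3), with mouse and region as terms. Benjamini-Hochberg adjustment covered all 18385 genes, and genes with adjusted p under 0.05 were called. Errors are standard errors of the log2 difference; levels are TMM-normalised read counts, or RPKM over exon length where genes are compared. Samples were paired because both regions came from the same animal; deviations from the region means correlated by -0.086 to 0.27 within a mouse (median 0.18), and no 2 libraries agreed within sampling noise. limma 3.58.1, DESeq2 1.42.0 and sva 3.50.0 served alternatives. The fit with mouse and region was tested on simulated data.

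Gene positions and overlaps came from the GENCODE annotation of GRCm38, and 46574 of 47069 identifiers matched. Exons of 67 named genes overlap another gene. Where that gene is on the opposite strand, its reads cannot be told apart without strand. Where it is on the same strand, as for Neurod1 and Cerkl, strand would not separate the reads of the shared exons. Named were the 12 protein-coding genes with the largest difference per direction, up to 6 called members of each of 48 lists, members called against their list, and receptor, channel, kinase, transcription factor and cerebellin families; Adcy5, Bdnf, Dnmt3a, Pde10a, Slc17a6, Syt1 and Ttr were chosen after their values were seen. Some genes that the rule names are not reported here. Members and lists were chosen with earlier results of these data known.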

Additional observations from a re-analysis of the deposited data

Results flagged for a closer look

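A library was marked where its gap to the nearest of the other 7 libraries of its region as a share of the whole range exceeded the critical value of Dixon's test for 8 samples, which chance alone does in about 1 of 20 groups. Over 240 named genes and 5 marker sums in both regions, 89 of 490 groups of libraries were marked, and 56 of them by the cerebellum of mouse M754.

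The cerebellar library of mouse M754 was the highest of 8 for cortical neuron, adhesion and release genes, with gaps of 0.582 for Camkv, 0.69 for Cbln4, 0.588 for Dlx2, 0.78 for Grid1, 0.622 for Lamp5, 0.715 for Lrrtm4, 0.616 for Nxph4, 0.541 for Rasgrf2, 0.666 for Rprm, 0.549 for Slc17a8, 0.735 for Slc1a1, 0.701 for Slc30a3, 0.814 for Sp9, 0.726 for Stx1a, 0.569 for Syt16, 0.617 for Syt17 and 0.572 for Syt5 of the range. Among receptor, channel and signalling genes the gaps were 0.636 for Adcy5, 0.584 for Adrb1, 0.622 for Arc, 0.546 for Cacna1h, 0.692 for Chrm3, 0.643 for Chrm4, 0.569 for Chrna3, 0.61 for Ephb3, 0.591 for Ephb6, 0.682 for Grm8, 0.548 for Kcnc2, 0.75 for Kcng1, 0.534 for Kcnv1, 0.633 for Pde1b and 0.656 for Prkch. For peptides, hindbrain factors and inhibitory transporters they were 0.752 for Cartpt, 0.557 for Fgf1, 0.774 for Gbx2, 0.694 for Pax2, 0.563 for Pdyn, 0.651 for Slc6a11, 0.692 for Slc6a5, 0.753 for Slc6a9, 0.693 for Sst and 0.624 for Tac1. For glial genes and marker sums they were 0.74 for Cnp, 0.859 for Cx3cr1, 0.799 for Fa2h, 0.855 for Gpr17, 0.634 for Ugt8a, 0.728 for the summed mature oligodendrocyte markers and 0.607 for the summed Hox genes. The same library was the lowest for granule cell and other cerebellar genes, with gaps of 0.625 for Cnpy1, 0.618 for Gabra6, 0.574 for Itpr3, 0.721 for Mbd6, 0.593 for Pax6, 0.543 for Zic1 and 0.685 for Zic4. Single forebrain, glial and hindbrain genes thus stood out together in this library while granule cell genes were low in it. Sums of forebrain lists were mixed there. Markers of cortical layers 2 to 4 and of layer 6 had their highest cerebellar sums, 13858.5 and 3917. Cortical excitatory neuron markers had their lowest, 21840 (median 42329). Layer 5, forebrain patterning and forebrain GABA interneuron sums were 10555, 5821 and 32729, below medians of 13373, 6635 and 42843. Dlx2 and Sp9 peaked at 2.58 and 10.3 counts.

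Of the other 7 cerebella, 3 were marked for 1 gene each and 4 for none: 0.549 for Slc4a1 (mouse M757), 0.547 for Setdb2 (mouse M762) and 0.701 for Hba-a2 (mouse M765). In cortex, mouse M759 was the highest library for cerebellar genes, with gaps of 0.62 for Barhl1, 0.576 for Cbln1, 0.728 for Cbln3, 0.8 for Cnpy1, 0.834 for Crtam, 0.686 for Dao, 0.801 for Fat2, 0.659 for Gabra6, 1 for Pax3, 0.616 for Pcp2, 0.531 for Ppp1r17 and 0.5263 for Slc6a5; for Pax3 it was the sole library with a read. It was also the highest for Gpr34, a microglial gene (0.649). Mouse M754 was the highest in cortex with 0.748 for Calb2, 0.578 for Chrdl1, 0.761 for Chrnb4, 0.854 for Dlx1, 0.819 for Dnah11, 0.92 for Eomes and 0.568 for Slc4a1, and mouse M751 with 0.611 for Cbln4, 0.536 for Egr1, 0.567 for Kcnc1, 0.576 for Kcnq5 and 0.595 for Syt2. Mouse M757 was the highest for choroid plexus genes, with 0.704 for Ttr and 0.71 for the summed choroid plexus markers. The remaining marks were 0.647 for Otx2 and 0.753 for Prkcd for mouse M752, and 0.637 for Uncx for mouse M762.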

How the results depend on the processing

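The 2-fold counts kept their order, with cortex above cerebellum, under every alternative run. Without the mouse block (no pairing) they were 1611 and 2674, against 1549 and 2783 with it, and all calls were 5414 and 5151; Glra3, Hba-a2, Mbd5 and Slc6a11 lost their call. In Mbd5+/GT mice they were 1515 and 2659 without pairing, and the tests between genotypes and sexes gave 0 genes, as with it, with 261 and 683 at an unadjusted p under 0.05. Leaving out each mouse in turn gave 1513 to 1687 and 2682 to 2909 genes past 2-fold, and 4832 to 5543 and 4951 to 5525 calls. DESeq2, limma-voom, RLE size factors, total-count scaling, no filter, surrogate variables and males only moved none of these counts over all genes by more than 1.5 times. Of the 96 counts of called list members, the same settings in that order moved 2, 2, 0, 6, 7, 13 and 13 by more than that, and mature oligodendrocyte, choroid plexus, cilium, meningeal, vascular and ribosomal lists were among those moved. A test against the 2-fold threshold itself (glmTreat) gave 972 and 1854, and at least 10 counts in every library gave 954 and 1622, with fewer genes tested. With fewer mice, calls higher in cerebellum were 3257 in females, 2104 in litter 1 and 2838 in litter 3, and calls higher in cortex were 3004 and 3344 in these litters. Scaled to total counts, the median of all genes was 0.103 instead of 0.017 and 57.3% of calls were higher in cerebellum, against 5341 of 10687 with TMM.

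Chosen after seeing the data, leaving out the 4 mice with most striatal transcripts gave 2825 calls higher in cerebellum and 3368 in cortex, and leaving out the 3 mice with most Ttr in cerebellum gave 1510 and 2786 genes past 2-fold. Of 240 named genes, 183 kept direction and call under each of up to 23 alternatives. Calls lost when 1 mouse was left out were those of Cnp, Fa2h, Hba-a2, Kcnc4, Mbd5, Setdb1 and Ugt8a, and calls gained were those of Clock, Fos, Gbx2, Gria1, Scn1a, Scn2a, Scn8a and Ttr. Directions turned only for 3 genes that did not pass over all mice. Dnmt3a was at 0.013 with total counts, 0.011 without the 2 mice with most Hox transcripts and 0.0041 without the 4 striatal ones. Scn2a was at -0.017 without the Ttr mice. Slc17a6 was at -0.95 in males, -0.67 without these Hox mice and -0.14 without the Ttr mice, and single omissions gave -0.33 (mouse M754) to 0.29. The cause of these changes was not tested.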

Other observations

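Markers of neighbouring brain structures gave values not described above. All 13 striatal projection neuron markers were higher in cortex (median log2 difference -4.75), and 8 of the 13 were called so without the 4 mice with most striatal transcripts in cortex. Of 7 hippocampal neuron markers 2 were higher in cerebellum and 3 in cortex. Of the brainstem monoaminergic and motor neuron markers 6 were tested and 3 were higher in cortex, but none was without the 4 mice with most striatal transcripts or with at least 10 counts in every library, and 1 was without the 3 mice with most Ttr in cerebellum. Of 10 meningeal markers 2 were higher in cerebellum and 1 in cortex; without mouse M751 alone 3 were higher in cortex, and without mouse M757, without pairing by mouse or with total-count scaling none was. None of the 39 Hox genes had enough counts to be tested.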
